A study of Mus musculus with 37 samples.

Results

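Uterine NK (uNK) cells that carried the inhibitory receptor NKG2A were set against uNK cells that carried neither NKG2A nor Ly49C/I and are called uneducated. The members were the 9 Ly49C/I-negative NKG2A-positive libraries and the 9 Ly49C/I-negative NKG2A-negative libraries from C57BL6 mice of WT genotype, 18 of the 37 libraries of the series, and were grouped by the sample labels, not by a measured value. Every library holds bulk RNA-seq read counts of sorted uterine cells, taken in pregnancy between gestation days 9.5 and 10.5. The 6 WT Ly49C/I+ NKG2A-negative libraries were used for 1 further comparison, and the libraries from NKG2A KO mice were used only in an alternative fit. The study gives an age only for mice whose spleen, brain or bone marrow was taken, and no source used here says how many mice went into a library. The p-values therefore measure the spread between libraries.

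All cells had passed one gate for live CD45+ NKp46+ cells that lacked lineage markers, CD3, CD4 and CD8 among them, and high CD11b. The gate did not part tissue-resident uNK cells, conventional NK cells and ILC1-like cells, so a library can hold a mixture of them. The antibody listed for NKG2A also binds NKG2C and NKG2E, and cells with both receptors were not collected. In bulk samples, fewer cells of a type and less RNA per cell cannot be told apart.

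NK cells are educated when an inhibitory receptor meets self MHC class I. NKG2A pairs with CD94 and binds the non-classical molecule Qa-1, whereas Ly49C and Ly49I bind classical class I molecules. In the pregnant uterus, NK cells line the decidua, secrete cytokines and matrix proteins and take part in remodelling of the spiral arteries.

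Reads counted on genes came to between 16109604 and 18173312 in the uneducated libraries and to between 13287163 and 18337954 in the NKG2A+ libraries. Uneducated library 5 had 13990 genes with a count and 1.12% mitochondrial reads, against a group median of 0.339%, and NKG2A+ library 9 had 13982 genes with a count. As an alternative, libraries with number 5 were left out of both groups, although NKG2A+ library 5 had 16304 genes with a count and 0.353% mitochondrial reads. One label of uneducated library 5 carries number 4, while its title carries 5, and the title was followed. Ly49C/I+ libraries bear the numbers of their description, which differ from those of some titles. Levels below are CPM, that is reads scaled to a common library size after TMM correction, and changes are log2 fold changes of NKG2A+ over uneducated cells with their standard error (SE) from edgeR's quasi-likelihood test. A gene is said to rise or fall where its Benjamini-Hochberg adjusted p was under 0.05 over all 9339 genes tested.

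Of these 9339 genes, 698 rose and 706 fell in NKG2A+ cells. That is 15.0% of the genes tested, with 7.47% higher and 7.56% lower, and the shares of each group of genes below are to be read against these. In 190 genes (2.03%) the CPM ranges of the groups did not overlap. The median change over all genes tested was 0.01. Without number 5, 1520 genes passed the threshold, 800 of them higher.

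The sorted receptor checked the labels. Klrc1, which encodes NKG2A (chr6:129666015-129678973 in GRCm38, minus strand), ranged from 498 to 759 CPM in the NKG2A+ libraries, with a median of 582. In the uneducated libraries it ranged from 1.25 to 13.8 CPM, with a median of 3.14. The groups did not overlap, and the change was 7.15 (SE 0.37, adjusted p = 2.14e-11, edgeR). Klrc1 shares 38.6% of its 50-base stretches with other genes, among them Klrc2 and Klrc3. Ncr1, which encodes the gating receptor NKp46, ranged from 845 to 992 CPM in NKG2A+ cells and from 486 to 660 CPM in uneducated cells (change 0.64, SE 0.06, adjusted p = 1.27e-06, edgeR). Ncr1 was thus present in all libraries, and its groups did not overlap. Klra9, which encodes Ly49I, was at 107 ± 11.3 CPM in NKG2A+ cells and 70.4 ± 19.7 CPM in uneducated cells (SD, n = 9 each). Both were under the 657 ± 96.3 CPM (SD, n = 6) of the Ly49C/I+ libraries, from which NKG2A+ cells differed by -2.61 (SE 0.09).

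Other surface genes of the gate also moved. Ptprc, which encodes CD45, rose by 0.46 and Klrb1c, which encodes NK1.1, by 0.62. Itgam, which encodes CD11b, rose by 1.08, from 24.0 ± 8.27 to 50.8 ± 10.7 CPM (SD, n = 9 each), although 66.3% of its 50-base stretches also occur in an overlapping gene model. Eomes, a defining NK transcription factor, was at 363 ± 77.8 CPM against 409 ± 65.6 CPM (SD, n = 9 each) and did not pass the test (adjusted p = 0.375, edgeR).

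Of 10 tested T cell markers, 5 were higher in NKG2A+ cells. Tcrg-C4, a constant segment of the T cell receptor gamma chain, rose from between 0.0541 and 9.67 CPM to between 28.2 and 120 CPM (change 3.65, SE 0.52). Cd3e rose by 1.84 to 14.6 ± 8.26 CPM and Cd3d by 1.19 to 26.3 ± 9.63 CPM (SD, n = 9). Cd3g and Trac did not pass, with changes of -0.13 and -0.24, and Cd4 and Cd8a never exceeded 3.40 CPM. The summed level of all 19 markers was 868 to 1251 CPM in NKG2A+ and 590.1 to 874 CPM in uneducated libraries. The part that T cells might have in the changes below was not tested.

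Markers of several other cells were lower or near zero. Among dendritic cell markers, 3 of 6 tested fell, namely H2-Ab1 (-1.62), H2-Eb1 (-1.48) and Cd74 (-1.18), and the summed level of the 8 listed was 322 to 948 CPM against 703 to 1165 CPM. The basophil and mast cell genes Mcpt8 (-1.89) and Cpa3 (-1.55) also fell, and the sum of that list was 6.46 to 21.3 CPM against 18.5 to 85.1 CPM. So did Epcam (-1.28), Cdh1 (-0.71), Pecam1 (-0.76) and Ighm (-0.38). Summed levels in NKG2A+ and uneducated libraries were 68.5 to 194 against 202.5 to 330 CPM for epithelium, 123 to 204 against 218 to 344 CPM for endothelium and 395 to 490.5 against 402 to 663 CPM for B cells. No tested macrophage or monocyte marker passed, with sums of 483 to 1139 against 613 to 773 CPM. Neutrophil and trophoblast markers had none above the level needed for a test, with sums of at most 39.3 and 4.56 CPM, and Cd79a, Ly6g, Cdh5 and Tpbpa stayed under 1 CPM in every library. The decidual gene Prl8a2 reached 888 CPM in NKG2A+ library 4 with group medians of 7.32 and 10.2 CPM (change 3.05, SE 1.12, adjusted p = 0.0706, edgeR).

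Beta-globin transcripts of red cells were higher as well. The summed red cell and platelet markers ranged from 672 to 2549 CPM in NKG2A+ and from 189 to 1266 CPM in uneducated libraries. Hbb-bs rose by 1.02 and Hbb-bt by 1.01, at adjusted p = 0.0422 and 0.0439 (edgeR). Each lost its call in several of the fits that left out 1 library, for instance without NKG2A+ library 6 (adjusted p = 0.0913 and 0.0969) or uneducated library 4 (0.0789 and 0.0827). The part of this difference in the results below was not tested.

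Receptors of the NK gene complex differed beyond the sorted one. Klrb1b, which encodes the inhibitory receptor NKR-P1B (chr6:128813706-128826331), ranged from 287 to 470 CPM in NKG2A+ cells (median 340.3) and from 119 to 166 CPM in uneducated cells (median 135). Every NKG2A+ library lay above every uneducated one (change 1.33, SE 0.09, adjusted p = 7.20e-09, edgeR), although 27.2% of its 50-base stretches occur in relatives. Klrk1, which encodes the activating receptor NKG2D, rose by 0.71 and Klre1 by 0.49, but with GC and length offsets neither passed (adjusted p = 0.150 and 0.0625, edgeR). Klrd1, which encodes the partner CD94, was at 736 ± 104 CPM against 581 ± 141 CPM (SD, n = 9 each) and did not pass (adjusted p = 0.0685, edgeR), though it passed without uneducated library 6 (0.0338), 7 (0.0423) or 9 (0.0418). Klra3, which encodes Ly49C, differed by 0.29 and did not pass.

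**Figure D1:**
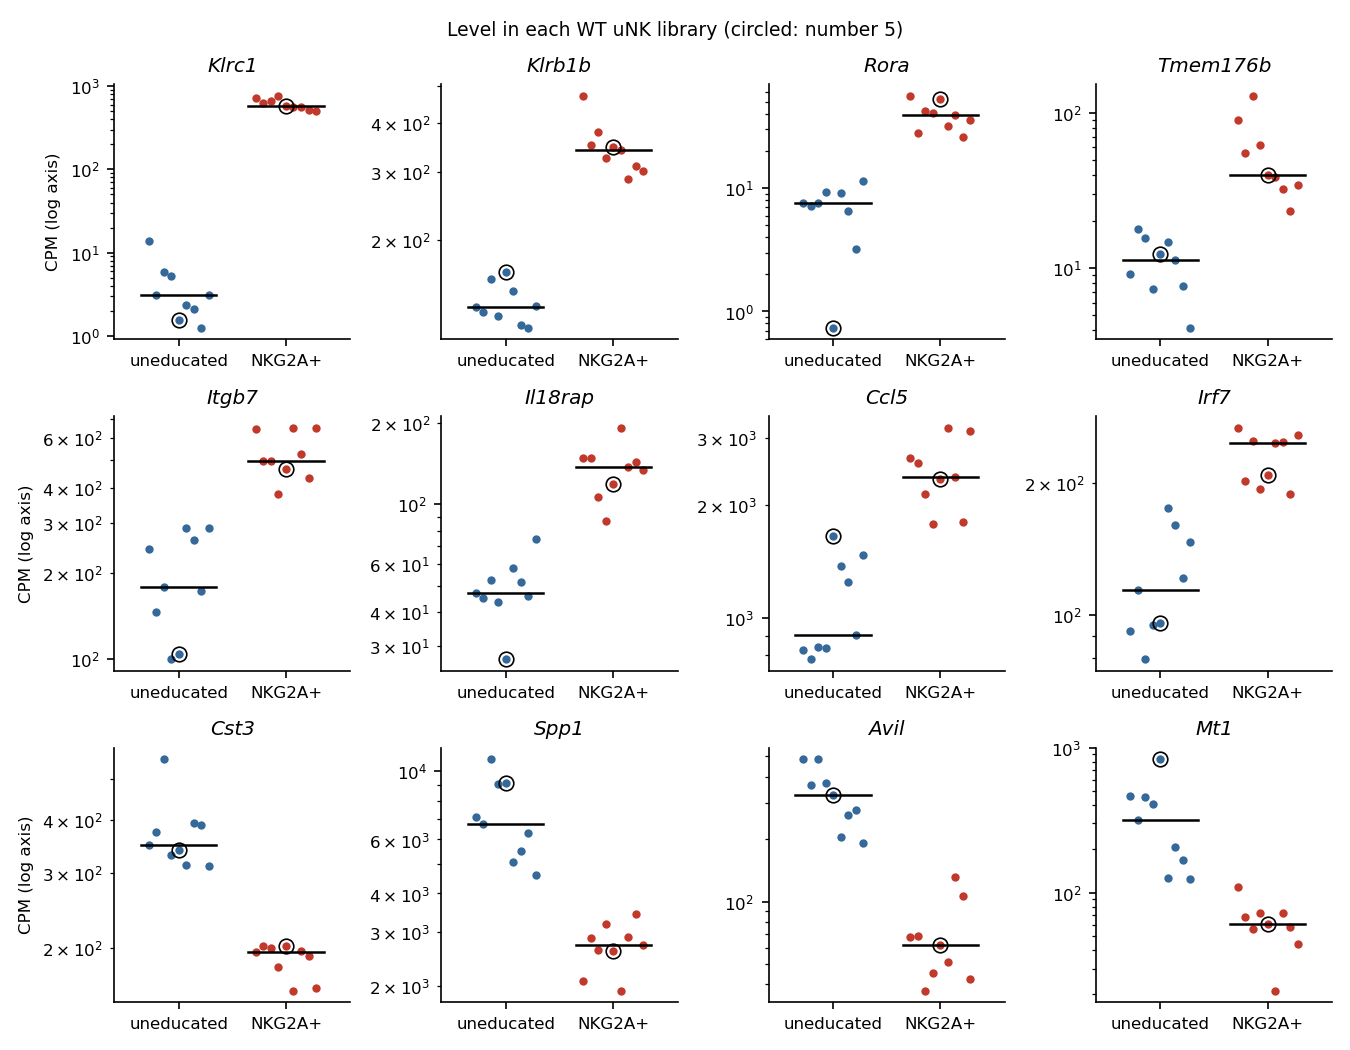
CPM on a log axis of 12 genes in each of the 9 uneducated (blue) and 9 NKG2A+ (red) libraries. Each point is 1 library, the bar is the median and circled points are the libraries with number 5. Klrc1 lies between 498 and 759 CPM in NKG2A+ cells and at most at 13.8 CPM in uneducated cells, and the groups do not overlap for any gene shown.

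Transcription factors of NK and innate lymphoid cells moved mainly upward, with 11 of 33 tested higher, 2 lower and a median change of 0.37. Without uneducated library 5, 17 were higher. Rora, a nuclear receptor used in the development of innate lymphoid cells (chr9:68653786-69388246), ranged from 26.2 to 55.9 CPM in NKG2A+ and from 0.737 to 11.5 CPM in uneducated libraries, with the lowest value in uneducated library 5. The groups did not overlap (change 2.49, SE 0.32, adjusted p = 1.96e-05, edgeR), and without number 5 the change was 2.28. Maf rose by 1.73 to 10.4 ± 1.96 CPM (SD, n = 9) and Ets1, a factor of lymphoid development, by 0.68. Maf was at 1.3 to 5.4 CPM in uneducated libraries, so it passed the filter of 5 CPM mainly through the NKG2A+ group. Zbtb32, a repressor that is induced in activated lymphocytes, fell by 2.03, from 85.7 ± 48.2 to 21.1 ± 9.42 CPM (SD, n = 9 each). Its groups overlapped, with 34.7 CPM in NKG2A+ library 9 and 29.9 CPM in uneducated library 6. Zbtb32 was at 87.0 to 158 CPM in uneducated libraries 1 to 5 and at 29.9 to 52.6 CPM in 6 to 9. Batf, an AP-1 family factor, fell by 0.44.

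Kruppel-like factors were higher in 4 of 11 tested and lower in 0. Klf2, which controls lymphocyte egress genes, rose by 1.02 (SE 0.21), Klf3 by 1.22 (SE 0.21) and Klf6 by 0.36 (SE 0.06).

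Genes linked to tissue residence and to ILC1 did not move as one block. Of 22 tested, 8 rose and 2 fell. Cxcr6, a chemokine receptor of liver and tissue lymphocytes, ranged from 23.7 to 198 CPM in NKG2A+ cells (median 64.3) and from 4.89 to 25.3 CPM in uneducated cells (median 11.6). The ranges touched, and the change was 2.86 (SE 0.38, adjusted p = 2.68e-05, edgeR). Tmem176b, a membrane channel gene of myeloid and innate lymphoid cells, ranged from 23.3 to 128 CPM against 4.13 to 17.8 CPM, and rose by 2.33 (SE 0.32). Its neighbour Tmem176a rose by 2.64 (SE 0.39). Both Tmem176 genes lay in separate ranges in the groups, highest in NKG2A+ library 3. Krt83 rose by 1.97 and Cd200r1, an inhibitory receptor for CD200, by 3.29, from 1.64 ± 1.36 to 16.1 ± 8.75 CPM (SD, n = 9 each). Cd200r1 reached at most 4.13 CPM in uneducated libraries, so it passed the filter of 5 CPM only through the NKG2A+ group. It was tested in 20 of 29 alternative fits. Itga1, which encodes the residence integrin CD49a, went the other way and fell by 0.36, from 217 ± 26.8 to 169 ± 33.4 CPM (SD, n = 9 each). Il2ra fell by 0.78, a call that was lost without uneducated library 1 (adjusted p = 0.0606, edgeR).

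Genes that mark circulating mature NK cells moved more widely, with 14 of 20 tested higher, 4 lower and a median change of 1.03. Emb, which encodes the adhesion protein embigin, ranged from 190.1 to 310 CPM in NKG2A+ and from 58.8 to 136 CPM in uneducated libraries (change 1.19, SE 0.14). Itgb7, the integrin beta chain of gut and mucosal homing (chr15:102215995-102231944), ranged from 381 to 653 CPM against 99.4 to 290 CPM (change 1.41, SE 0.19, adjusted p = 3.24e-05, edgeR). Neither gene overlapped between groups, and Ly6c2 rose alongside by 1.38. The 4 that fell included Lgals3 (-1.22), which encodes galectin-3, the maturation receptor gene Klrg1 (-0.73) and Prf1 (-0.69), which encodes perforin. The list thus had members of clear change in both directions, and the 5 smallest adjusted p among all decreases included Lgals3.

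Receptors for chemokines and egress signals were higher in 9 of 13 tested. This list shares members with those above. Cxcr6 and Cxcr3 are also counted among the ILC1-linked genes, and S1pr1, S1pr4, S1pr5 and Cx3cr1 among the circulating NK cell genes. Besides Cxcr6, Cxcr4 rose by 1.44, from 24.2 ± 9.81 to 65.6 ± 12.7 CPM, and Cxcr3 by 1.12, from 69.3 ± 25.7 to 151 ± 39.4 CPM (SD, n = 9 each). Among integrins the directions were mixed, with 5 of 16 higher and 4 lower. Itgb7, Itgam and Itgb2 (0.51), the shared chain of the leukocyte integrins, rose, whereas Itgb3 (-0.87), a chain of the vitronectin receptor, and Itga1 fell.

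**Figure D2:**
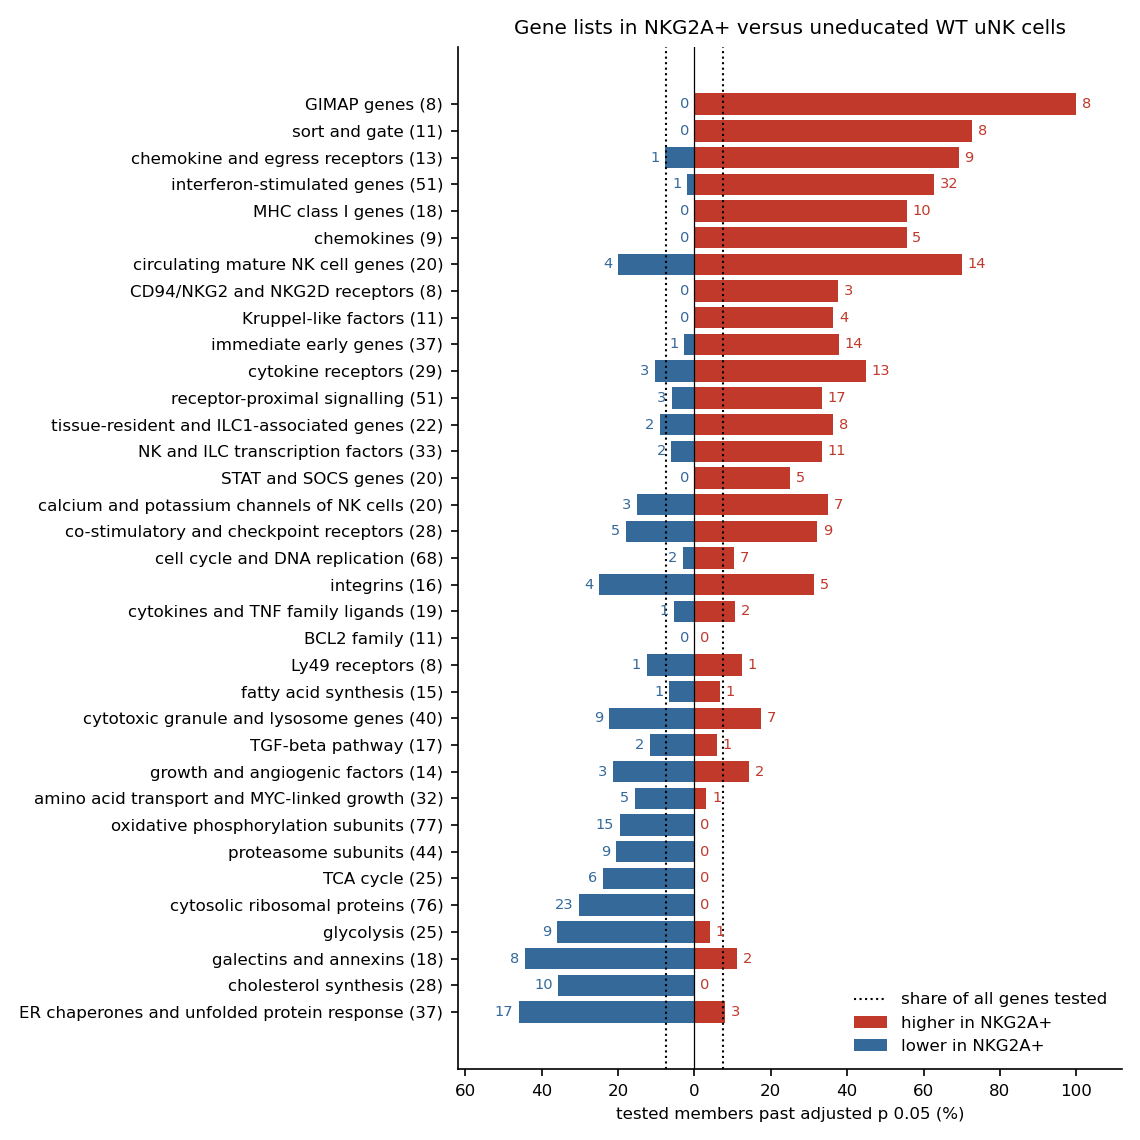
Share of the tested members of each gene list past adjusted p 0.05 (horizontal axis, %), higher in NKG2A+ to the right and lower to the left, with the number of members at the bar ends and the number tested in brackets. Dotted lines mark the shares over all genes tested, 7.47% and 7.56%. All 8 GIMAP genes are higher, and 17 of 37 genes for ER chaperones and the unfolded protein response are lower.

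Interferon-stimulated genes, which code for antiviral effectors and are switched on by interferon receptors, were higher in NKG2A+ cells. Of 51 tested, 32 rose and 1 fell, and the median change was 0.71. Ifi203, a nucleic acid sensor of the HIN-200 family (chr1:173920407-173942672), ranged from 119 to 172 CPM in NKG2A+ and from 52.3 to 101 CPM in uneducated libraries. Irf7, which amplifies the type I interferon response, ranged from 188 to 267 CPM against 79.5 to 175 CPM. Neither gene overlapped between groups, and the changes were 0.90 (SE 0.12, adjusted p = 2.13e-05, edgeR) and 0.93 (SE 0.14, adjusted p = 8.95e-05, edgeR). Ifi209 rose by 0.96. The member that fell, Psmb8, encodes an immunoproteasome subunit. Its change of -0.22 lost its call without uneducated library 1 (adjusted p = 0.0529, edgeR) or 4 (0.0603), or without NKG2A+ library 2 (0.0566), 4 (0.0561) or 5 (0.0609).

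The mean log2(CPM + 1) of the interferon-stimulated genes, centred on the 18 libraries, lay between 0.09 and 0.62 in NKG2A+ libraries and between -0.67 and 0.05 in uneducated ones. The groups were therefore separate at the level of the list. Across the alternative fits, between 25 and 36 members rose, and 33 did so without number 5. Of 4 IFITM genes tested, which are also known as interferon-inducible, 2 fell, 0 rose and 2 did not pass, with changes from -1.79 to 0.46. Ifitm1 fell by 1.79, from 166 ± 91.8 to 47.9 ± 21.6 CPM, and Ifitm2 by 1.39, from 64.9 ± 24.2 to 24.8 ± 7.47 CPM (SD, n = 9 each).

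Interferon-stimulated promoters often hold the interferon-stimulated response element, whose core repeats GAAA. RefSeq promoter windows (GRCm38.p6, 250 bases before to 50 after a start) were found for 25 of the 32 members that rose. In 17 of these 25, or 68.0%, at least 1 window held GAAANNGAAA on either strand, overlapping matches counted. The same letters occurred in 4.01% of the 7437 tested genes with a window, and in 6 of 13 tested members that did not rise. The windows of the 4 members with the smallest adjusted p that held a match are shown because they carry the shared element, which is in capitals. In Isg15, 3 overlapping matches form 1 run, and in Trim30a the match is on the opposite strand. These 4 were chosen after their values were seen, and the changes of Igtp, Trim30a and Isg15 were 0.98, 0.72 and 0.98.
Ifi203, chr1:173942493-173942572, minus strand: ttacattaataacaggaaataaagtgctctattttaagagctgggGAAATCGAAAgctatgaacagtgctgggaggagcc
Igtp, chr11:58199477-58199555, plus strand: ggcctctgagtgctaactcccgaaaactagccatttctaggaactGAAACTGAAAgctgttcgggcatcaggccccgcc
Trim30a, chr7:104465194-104465274, minus strand: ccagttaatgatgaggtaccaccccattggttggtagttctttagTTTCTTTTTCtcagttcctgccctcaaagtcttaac
Isg15, chr4:156200830-156200941, minus strand: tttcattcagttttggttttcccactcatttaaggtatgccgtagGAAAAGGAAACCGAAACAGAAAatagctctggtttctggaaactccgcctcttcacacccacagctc

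MHC class I genes, many of which respond to interferon, rose in 10 of 18 tested and fell in 0, with a median change of 0.33. H2-K1 rose by 0.33, from 4025 ± 649 to 5058 ± 452 CPM (SD, n = 9 each), the non-classical H2-Q7 by 0.79 and H2-Q6 by 0.73. The Q-region genes share about 26.4% (H2-Q7) and 32.0% (H2-Q6) of their 50-base stretches with relatives, so their reads can be split among copies.

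The GIMAP genes, a cluster on chromosome 6 for GTPases of lymphocyte survival, rose in all 8 of 8 members tested, with changes between 0.36 and 0.98 and a median of 0.74. Gimap3 ranged from 477 to 860 CPM in NKG2A+ and from 252 to 429 CPM in uneducated libraries. Gimap4 rose by 0.89 and Gimap6 by 0.69. The groups did not overlap for these 3 genes, and the count stayed at 8 whichever single library was left out.

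**Figure D3:**
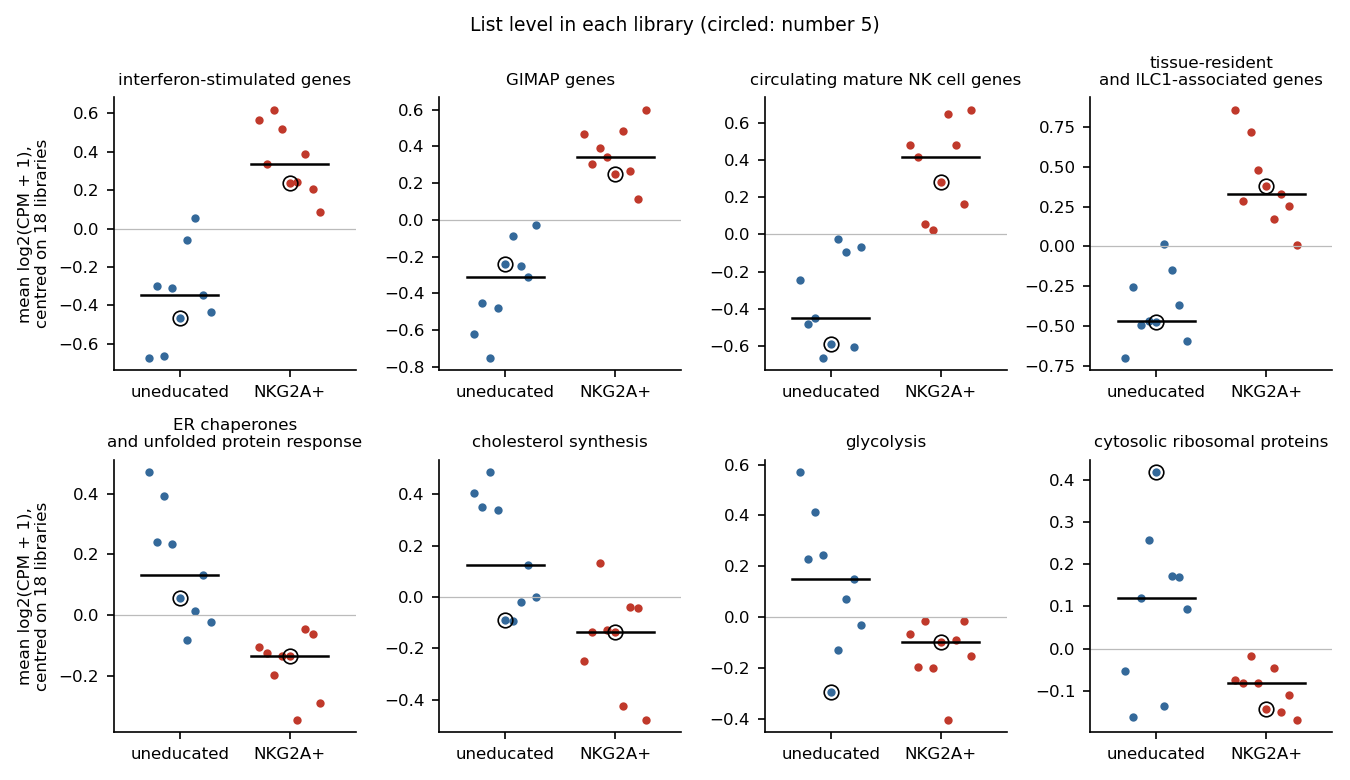
Mean log2(CPM + 1) of the tested members of 8 gene lists in each library, centred on the mean of the 18 libraries. Points are libraries (uneducated blue, NKG2A+ red), bars are medians and circled points are number 5. The interferon-stimulated genes lie between 0.09 and 0.62 in NKG2A+ and between -0.67 and 0.05 in uneducated libraries. The GIMAP and circulating mature NK cell lists are also separate. The tissue-resident, ER chaperone, cholesterol, glycolysis and ribosomal protein lists overlap between groups.

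Chemokines formed another group that was higher. Of 9 chemokine genes tested, 5 rose and 0 fell. Ccl5, a chemoattractant for T cells and NK cells (chr11:83525778-83530518), ranged from 1783 to 3205 CPM in NKG2A+ cells (median 2372) and from 779 to 1650 CPM in uneducated cells (median 903). It was higher in every NKG2A+ library, with its highest uneducated value in library 5 (change 1.15, SE 0.16, adjusted p = 3.57e-05, edgeR). Ccl4 rose by 0.91 and Ccl3 by 1.05.

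Among 19 cytokine and TNF family genes, 2 rose and 1 fell, and 6 rose without uneducated library 5. Ifng, which encodes interferon gamma, ranged from 99.7 to 165 CPM against 53.9 to 89.5 CPM, without overlap (change 0.87, SE 0.12, adjusted p = 5.53e-05, edgeR). Fasl, the death receptor ligand, rose by 0.64 and Mif fell by 0.74.

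Cytokine receptors rose in 13 of 29 tested and fell in 3. Il18rap, the signalling chain of the interleukin-18 receptor, ranged from 86.5 to 192 CPM in NKG2A+ and from 26.8 to 74.7 CPM in uneducated libraries (change 1.45, SE 0.16, adjusted p = 2.92e-06, edgeR). Its partner Il18r1 rose by 1.66, from 9.15 ± 3.54 to 28.8 ± 7.82 CPM (SD, n = 9 each), and Ifngr1 by 0.58. Both chains of the interleukin-18 receptor were thus higher, without overlap between groups. Tnfrsf9, which encodes the co-stimulatory receptor 4-1BB, fell by 0.82, from 1468 ± 281 to 834 ± 95.5 CPM (SD, n = 9 each), and Tgfbr2 by 0.37. Downstream, 5 of 20 STAT and SOCS genes rose and 0 fell, among them Stat4 (0.82), the transducer of interleukin-12, Jak1 (0.38) and Pias1 (0.43). Smad3, a transducer of TGF-beta signals, rose by 0.82.

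Immediate early genes, which respond within minutes to receptor signals, rose in 14 of 37 tested and fell in 1. Nfkbiz, a regulator of NF-kappaB targets, rose by 1.13 and Btg1, an antiproliferative gene, by 0.70, while Gadd45g fell by 0.98. Receptor-proximal signalling genes rose in 17 of 51 and fell in 3. Pik3r1, a PI3-kinase regulatory subunit, rose by 0.66, and Dgka, which ends diacylglycerol signals, rose by 1.33, from 43.8 ± 16.2 to 109.8 ± 23.2 CPM (SD, n = 9 each). Sh2d1b2, which encodes the SLAM adaptor ERT, fell by 1.43 and Vav3 by 0.53. Of 20 calcium and potassium channel genes, 7 rose and 3 fell, but 4 rose without uneducated library 1, and 2 rose and 0 fell without a filter on low counts. Several signalling genes are also used by T cells, whose summed markers are given above. Co-stimulatory and checkpoint receptors went both ways, with 9 of 28 higher and 5 lower. Cd160, a receptor for HVEM, rose by 1.16 and Ly9 by 0.94, whereas Havcr2, which encodes TIM-3, fell by 2.30, from 95.0 ± 52.0 to 19.3 ± 14.1 CPM (SD, n = 9 each), and Cd96 by 0.35. Havcr2 was at 85.3 to 172 CPM in uneducated libraries 1 to 5 and at 30.3 to 76.35 CPM in 6 to 9.

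Genes of the cytotoxic granule and lysosome, granzymes left out, were split. Of 40 tested, 7 rose and 9 fell. Serpinb9, an inhibitor of granzyme B, ranged from 1581 to 2039 CPM in NKG2A+ and from 1027 to 1412 CPM in uneducated libraries (change 0.56, SE 0.06, adjusted p = 4.61e-06, edgeR). Serpinb6b rose by 0.89 and Rab27b, a Rab of granule secretion, by 1.59. Prf1 fell by 0.69, from 3270 ± 702 to 2031 ± 306 CPM (SD, n = 9 each) and Cst7, an inhibitor of lysosomal cathepsins, by 0.61. Of these 40, 3 or 4 rose without uneducated library 3, 4 or 8 or without NKG2A+ library 1 or 2. The named Serpinb9, Serpinb6b and Rab27b passed in all 29 alternative fits.

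The largest increases with separate groups, after Klrc1, Tcrg-C4 and Cd200r1, were in Adgrg5, an adhesion G protein-coupled receptor, Tmem176a, Gramd3, Rora, Cd226, Tmem176b and Krt83. Adgrg5 ranged from 32.5 to 107 CPM against 4.36 to 14.6 CPM (change 2.72, SE 0.28). Gramd3 rose by 2.50 (SE 0.23). Ms4a6b, a tetraspan membrane protein gene, rose by 1.24 (SE 0.11) and Gna15, a G protein alpha subunit, by 1.82 (SE 0.17), and both were among the 5 increases with the smallest adjusted p.

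The largest decreases were led by Fam178b (-3.23), Anxa3 (-2.58), Ctsg (-2.57), which encodes the granule protease cathepsin G, and Mt1 (-2.46), which encodes a metallothionein, and also held Gzmd, Gzmf and Gzmg. Fam178b was at 0 to 5.62 CPM in NKG2A+ and 12.2 to 72.7 CPM in uneducated libraries, highest in library 5. Anxa3 was at 0 to 13.2 against 14.2 to 49.3 CPM. Both passed the filter of 5 CPM mainly through the uneducated group, so the size of their changes is uncertain. Mt1 ranged from 21.1 to 109 CPM in NKG2A+ libraries. In uneducated libraries 1 to 5 it was at 315 to 833 CPM, highest in library 5, and in 6 to 9 at 124 to 205 CPM. Ctsg was at 107 to 172 CPM in uneducated libraries 1 to 5 and at 44.5 to 58.5 CPM in 6 to 9. Its NKG2A+ libraries lay between 4.45 and 36.3 CPM. The size of these decreases thus depends on which uneducated libraries are used. Without number 5 the change of Mt1 was -2.17. The actin regulators Avil and Scin were also among the largest decreases. Avil, which encodes advillin (chr10:127000709-127020994), ranged from 37.2 to 131 CPM against 192 to 486 CPM (change -2.28, SE 0.24, adjusted p = 2.56e-06, edgeR), and Scin, which encodes scinderin, fell by 2.25. Tmem119 fell by 2.40.

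Spp1, Cst3 and Lgals3 were among the 5 decreases with the smallest adjusted p. Spp1, which encodes the matrix cytokine osteopontin (chr5:104435118-104441050), ranged from 1926 to 3427 CPM in NKG2A+ cells (median 2719) and from 4603 to 10970 CPM in uneducated cells (median 6726). Cst3, which encodes the secreted protease inhibitor cystatin C (chr2:148871722-148875692), ranged from 159 to 203 CPM against 312 to 556 CPM. Both had separate groups, with changes of -1.41 (SE 0.15, adjusted p = 2.57e-06, edgeR) and -0.99 (SE 0.10, adjusted p = 1.27e-06, edgeR). Lgals3 ranged from 173 to 263 CPM against 340 to 630 CPM, and of 18 galectin and annexin genes tested, 8 fell and 2 rose. Anxa5 fell by 0.61 and Anxa6 rose by 0.46. Tmsb15a, a thymosin of actin binding, fell by 1.47. Among growth and angiogenic factors, 3 of 14 tested fell and 2 rose, or 1 without uneducated library 8 or 9 or NKG2A+ library 1 or 2. Pdgfa, a growth factor for stromal cells, fell by 1.21 and Sema4d by 0.45, while Timp2, an inhibitor of metalloproteinases, rose by 1.27.

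Of 37 tested genes for ER chaperones and the unfolded protein response, 17 fell and 3 rose, with a median change of -0.29. The list level, taken as for the interferon-stimulated genes, was 0.24 to 0.47 in uneducated libraries 1 to 4. It was -0.08 to 0.13 in uneducated libraries 5 to 9 and -0.35 to -0.05 in NKG2A+ libraries. Creld2, an ER stress-induced factor, ranged from 109 to 176 CPM in NKG2A+ and from 178 to 312 CPM in uneducated libraries (change -0.75, SE 0.12, adjusted p = 1.78e-04, edgeR). Pdia6, a disulfide isomerase, fell by 0.69 and Sdf2l1 by 0.59. The 3 that rose were Atf4 (0.28), Dnajb9 (0.50) and Ddit3 (0.52). Of these, Ddit3 (adjusted p = 0.0471, edgeR) passed in 11 of 29 alternative fits. It lost its call without any 1 of 15 libraries (0.0505 to 0.0952). Hspa5, the main ER chaperone, was at 2829 ± 218 CPM against 3387 ± 602 CPM (SD, n = 9 each) and did not pass (adjusted p = 0.0533), though it did so without uneducated library 5 (0.0303), 6 (0.0368), 7 (0.0402) or 9 (0.0193). Xbp1 differed by -0.05 and did not pass.

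The ER stress element is written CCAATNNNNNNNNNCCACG. Windows were found for 15 of the 17 members that fell, and 5 of them, or 33.3%, held these letters on either strand. The element occurred in 0.175% of the 7437 tested genes with a window, and in 3 of 16 members that did not fall. The 3 windows that overlap no annotated exon are given with the element in capitals. In Creld2 and Calr it lies on the opposite strand. These were likewise chosen after their values were seen, and the changes of Calr and Dnajc3 were -0.61 and -0.29.
Creld2, chr15:88819475-88819583, plus strand: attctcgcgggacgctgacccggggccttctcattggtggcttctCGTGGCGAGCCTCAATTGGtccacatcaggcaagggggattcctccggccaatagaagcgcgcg
Calr, chr8:84847030-84847138, minus strand: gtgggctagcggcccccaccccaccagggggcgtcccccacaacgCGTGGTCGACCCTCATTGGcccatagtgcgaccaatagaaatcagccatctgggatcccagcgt
Dnajc3, chr14:118937782-118937890, plus strand: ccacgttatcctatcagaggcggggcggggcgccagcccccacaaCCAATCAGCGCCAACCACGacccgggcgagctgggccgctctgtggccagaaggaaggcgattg

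Cholesterol synthesis genes fell in 10 of 28 tested and rose in 0, with a median change of -0.37. Hmgcs1, an early enzyme of the pathway, was at 91.4 ± 23.9 CPM in NKG2A+ and 151 ± 43.0 CPM in uneducated libraries (SD, n = 9 each), and its groups overlapped (change -0.73, SE 0.17, adjusted p = 0.00558, edgeR). Srebf2, the transcription factor of the pathway, fell by 0.52 and Pmvk by 0.60. The count is fragile. It was 5 or 6 without uneducated library 1, 3 or 4 or without NKG2A+ library 1, 2 or 6. The list level was 0.34 to 0.49 in uneducated libraries 1 to 4. In uneducated libraries 5 to 9 it was -0.09 to 0.13, against -0.48 to 0.13 in NKG2A+ libraries. The sterol element TCACNCCAC was in 1 of the 8 members that fell and had a window, against 1.36% of tested genes. Of fatty acid genes, Scd2, a desaturase, fell by 0.87 and Elovl7 rose by 1.73.

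Glycolysis fell in 9 of 25 tested and rose in 1, with a median of -0.37. Its list level was 0.23 to 0.57 in uneducated libraries 1 to 4. In uneducated libraries 5 to 9 it was -0.29 to 0.15, against -0.40 to -0.01 in NKG2A+ libraries. Gpi1, which turns glucose-6-phosphate into fructose-6-phosphate, ranged from 372 to 472 CPM against 553 to 688 CPM, without overlap (change -0.52, SE 0.06, adjusted p = 1.25e-05, edgeR). Aldoa fell by 0.55 and Gapdh, which has processed pseudogenes that share 24.7% of its 50-base stretches, by 0.49. Hk3 rose by 0.74, a call that was lost without NKG2A+ library 1 (adjusted p = 0.0522, edgeR). Of 25 TCA cycle genes, 6 fell and 0 rose, among them Dlat (-0.61) and Mdh2 (-0.42), but only 3 fell without uneducated library 1, 3 or 4 or NKG2A+ library 1 or 6. Amino acid transport and MYC-linked growth genes fell in 5 of 32. Slc7a5, a large neutral amino acid transporter, fell by 0.69 and Srm, which makes spermidine, by 0.66, while leaving out any of 10 single libraries, uneducated 1 to 4 or NKG2A+ 1, 3 or 6 to 9, gave 3.

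The same direction was seen in housekeeping complexes, with smaller median changes than for glycolysis. Cytosolic ribosomal proteins fell in 23 of 76 tested, with a median of -0.21, and Rps2 fell by 0.35. Without uneducated library 4 or 8 or NKG2A+ library 7, 13, 14 and 15 fell. Uneducated library 5 had the highest level of that list, and without number 5 in both groups 16 fell. Of 77 subunits of oxidative phosphorylation, 15 fell and 0 rose, and 9 did so without uneducated library 4 or NKG2A+ library 1 or 6. Uqcrq, a subunit of complex III, fell by 0.46. Cox6a2 stood apart with a larger fall of 2.02, at a low mean level of 4.85 against 19.7 CPM. It was also lower than in Ly49C/I+ cells (-2.48, adjusted p = 0.00325, edgeR). Of 44 proteasome subunits, 9 fell and 0 rose, with Psmc1 at -0.29 and Psmd6 at -0.37. Without uneducated library 1, 3 or 4 or NKG2A+ library 5, 6 or 7, 4 or 5 fell.

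Cell cycle genes moved little, with 7 of 68 higher. Mki67, the proliferation marker, was at 116 ± 36.3 CPM against 98.8 ± 37.5 CPM (SD, n = 9 each) and did not pass (adjusted p = 0.532, edgeR). The D-type cyclin genes Ccnd2 and Ccnd3 each rose by 0.61, and Cdk6 fell by 0.67.

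To see which changes also set NKG2A+ cells apart from the other educated population, the same 9 libraries were compared with the 6 WT Ly49C/I+ libraries. Both comparisons share the NKG2A+ libraries, so their values are given side by side without a test between them. Of 9308 genes tested, 254 passed (2.73%), 122 higher (1.31%) and 132 lower (1.42%), and with GC and length offsets 50 were higher and 85 lower. This count fell to 168, 163, 154, 155 and 147 without NKG2A+ library 2 or 8 or Ly49C/I+ library 2, 5 or 7, and to 124 without number 5 in both groups.

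Rora, Tmem176a and Tmem176b were higher than in Ly49C/I+ cells by 2.51, 3.20 and 3.05 (SE 0.23, 0.37 and 0.38), against 2.49, 2.64 and 2.33 over uneducated cells. Klrb1b was higher by 1.08, Adgrg5 by 2.01, Gramd3 by 1.91, Krt83 by 2.18 and Gna15 by 1.27 (edgeR adjusted p = 3.86e-05, 0.00660, 0.00358, 0.00316 and 0.00840). Cxcr6 was higher by 2.13, Itgb7 by 0.91, Rab27b by 1.07, Emb by 0.68, Ccl5 by 0.73 and Ncr1 by 0.38, and these too passed. Ifng was higher by 0.73, a call lost in 7 of 25 alternatives, among them those without Ly49C/I+ library 2 (adjusted p = 0.0686, edgeR) or 7 (0.0542). Ncr1, Emb and Ccl5 each lost the call in 2 of 25 alternatives (adjusted p up to 0.20, 0.0965 and 0.0552, edgeR), Ccl5 without number 5 among them.

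For other genes the Ly49C/I+ libraries lay near the NKG2A+ ones. Spp1 was at 2804 ± 545 CPM in Ly49C/I+ cells (SD, n = 6), a difference of -0.05 (SE 0.12), and Cst3 differed by -0.10 (SE 0.08). Irf7 differed by -0.18 (SE 0.11), Ifi203 by 0.15 (SE 0.11) and Creld2 by 0.05 (SE 0.12). Avil differed by -0.37 (SE 0.31) and Ctsg by 0.63 (SE 0.57), with wide errors. None of these passed the test, which does not show that the populations are alike. Among interferon-stimulated genes 1 of 52 tested rose over Ly49C/I+ cells and 0 fell, with a median difference of 0.03, and 13 were at an unadjusted p under 0.05 and 2 passed by DESeq2. Over all 9308 genes, 1709 were at an unadjusted p under 0.05 and 558 passed by DESeq2. For ER chaperones 0 of 37 passed by edgeR, with a median of 0.08, 8 at an unadjusted p under 0.05 and 3 by DESeq2. For glycolysis 0 of 25 passed by edgeR or DESeq2, with a median of 0.09 and 3 at an unadjusted p under 0.05. Of GIMAP genes 1 of 8 rose, with a median of 0.26, and of tissue-resident and ILC1-associated genes 8 of 21 rose and 1 fell, with a median of 0.64. Ribosomal proteins fell in 17 of 76 here too, with a median of -0.19.

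**Figure D4:**
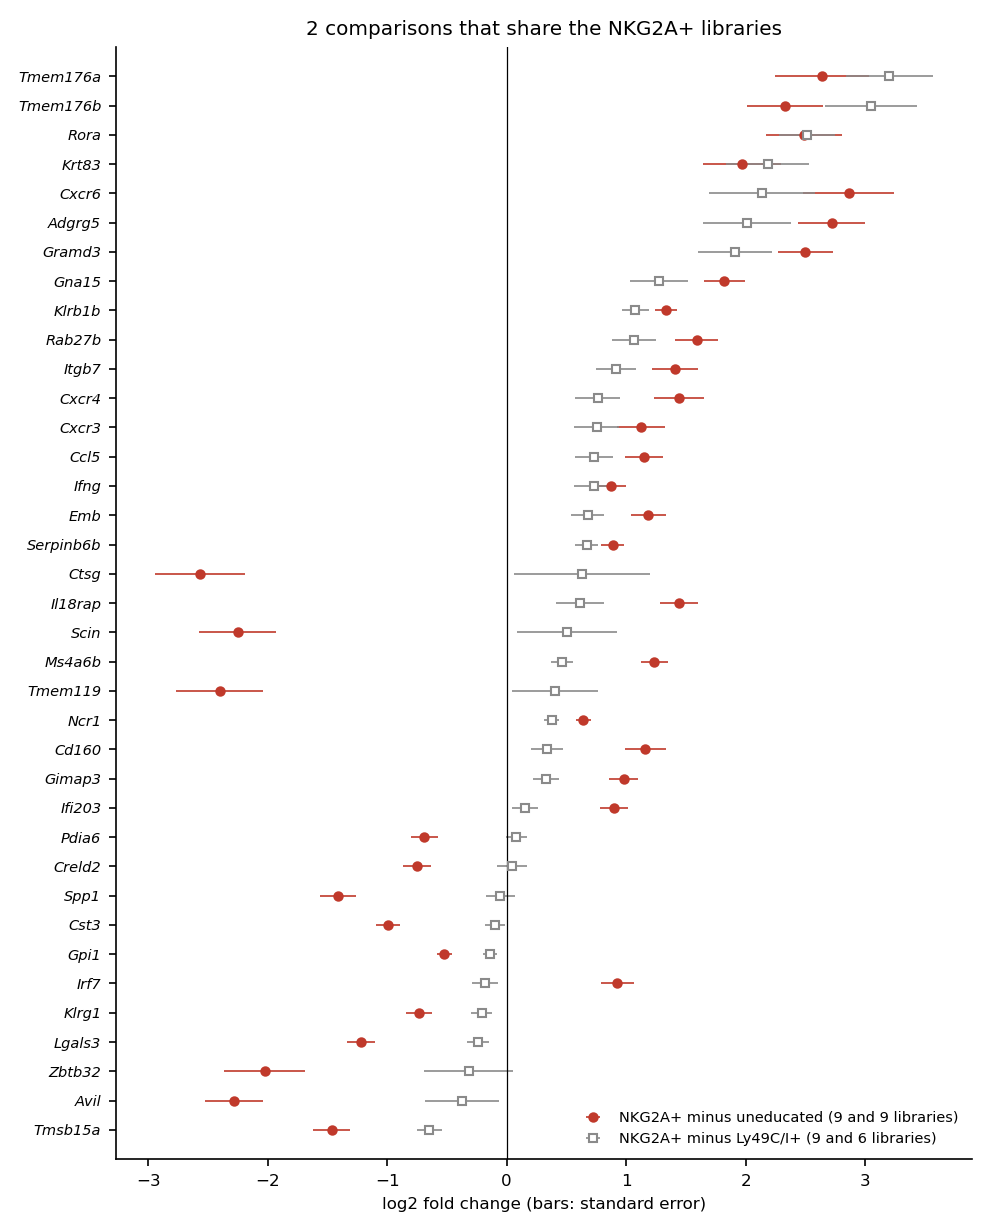
Log2 fold change of NKG2A+ over uneducated cells (red circles, 9 and 9 libraries) and over Ly49C/I+ cells (open grey squares, 9 and 6 libraries) for named genes, with bars of 1 standard error. Rora and the Tmem176 genes lie at 2.33 or above in both, whereas Spp1 is at -1.41 against uneducated and -0.05 against Ly49C/I+ cells.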

How the data were processed

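RNA of sorted uNK cells was amplified with the SMART-Seq v4 kit and made into libraries with Nextera XT. The authors trimmed reads with TrimGalore 0.5.0 and mapped them with STAR 2.7.1 to GRCm38, and deposited raw read counts per Ensembl gene, 1 file per library, without normalization. No source used here names the counting program or its strand setting, so overlapping and antisense genes may share reads. Amplified reads without molecular identifiers are not independent molecules. Summary lines without a gene entered neither library sizes nor tests. In these 18 libraries, reads given to no gene came to 2.90% to 4.49%, ambiguous reads to 4.04% to 4.49% and reads without a unique position to 11.4% to 13.8% of all reads listed.

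A gene was kept where its CPM reached 5 in 0.5 or more of the libraries of a comparison. The quasi-likelihood test of edgeR 4.0.16 (TMM, R 4.3.3) was fitted to the libraries of that comparison alone, with Benjamini-Hochberg adjustment. The authors' CQN normalization was not repeated, and splines on GC content and length with 5 degrees of freedom stood in as an alternative. SE is the absolute log2 fold change over the square root of F. Other alternatives were the likelihood ratio test, DESeq2 1.42.0, RLE factors, a filter of 1 CPM or none, a block for the library number, 1 fit over all 5 groups, leaving out number 5 or uneducated 5 and NKG2A+ 9, and leaving out every library singly. The code was tested on simulated counts. Annotation came from GENCODE M21, in which 52147 of 53700 identifiers have a symbol, and promoter windows from RefSeq.

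The members and the 47 gene lists were chosen with earlier results of these data known. Named genes are those of the sort and gate, the 10 largest changes in each direction with separate groups and at least 10 CPM, the 5 smallest adjusted p in each direction, and up to 3 members of each list in each direction with the smallest adjusted p. List-defining members that did not pass are given as values. Some genes, such as Klf2, Klf6, Sdhb and Sdhd, stand in several lists, so the counts of different lists are not independent. The authors' comparison table for these groups leaves out number 5 in both, which set that alternative. No values of the authors' comparison tables were used. Some items that this rule names are not reported here.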

Additional observations from a re-analysis of the deposited data

Results flagged for a closer look

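In the 9 libraries of each group, 58 sets of values were screened for 1 library standing far from its group, and 7 were found, where chance gives about 1 in 20. Uneducated library 5 stood apart by its 13990 genes with a count, by 1.12% mitochondrial reads and by 833 CPM of Mt1. NKG2A+ library 8 had the fewest reads on genes, 13287200, and NKG2A+ library 6 had 0.534% mitochondrial reads. Klrc1 was at 13.8 CPM in uneducated library 1, against at most 5.89 CPM in the rest of that group, and Cst3 was at 556 CPM in uneducated library 3. Without number 5 in both groups, Mt1 fell by 2.17 on the log2 scale.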

How the results depend on the processing

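The count of genes past the threshold in NKG2A+ against uneducated cells stayed between 1025 and 1728 over 29 alternatives, all within 1.5 times of 1404, and between 1118 and 1687 when 1 library was left out. The library numbers shared by the groups were not taken to pair the libraries in the main test. Same-numbered libraries correlated in their deviations by -0.02 to 0.26, 4 of 9 over 0.1, and 4 of 9 matched best with their own number. That is a hint of pairing from the data and not the design, and the main test leaves it out. With the replicate block 1418 genes passed. Against Ly49C/I+ cells, where 254 passed, the count was less stable: 442 by the likelihood ratio test, 558 by DESeq2, 104 without a filter, 135 with GC and length offsets, 127 with these and the replicate block, 124 without number 5, and 147 to 306 with 1 library left out. Differences from Ly49C/I+ cells that changed sign lay near zero: Ifi203 at -0.046 with GC and length offsets and -0.066 with the replicate block added, Cst3 at 0.073 under the latter, Spp1 at 0.023 with the replicate block and Creld2 at -0.00404 without number 5. With 1 library left out, Spp1 ranged from -0.10 to 0.061 (without Ly49C/I+ library 4) and Creld2 from -0.012 (without Ly49C/I+ library 5) to 0.11. The cause was not tested. Of 137 named genes past the threshold against uneducated cells, 126 passed in every alternative that tested them. Cd200r1 was tested in only 20 of the 29. The other 11 were lost in at least 1, among them Itga1 (adjusted p = 0.0606, edgeR) and Cdh1 (0.0657) without a filter on low counts. That setting moved the counts of 10 of 40 gene lists by over 1.5 times. Depth limits small changes of low genes.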
